A study of Mus musculus with 4 samples.

Results

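Genes of oxidative stress defence were examined in fetal livers of mice whose dams were fed a control diet (CD) or a high-fat diet (HFD). The set held 10 genes, Nqo1, Hmox1, Gclc, Gclm, Txnrd1, Srxn1, Sod1, Sod2, Cat and Gpx1, of 22911 genes named on the array. They were chosen by name as enzymes of this defence, and all probes matching their transcripts were taken, which gave 11 probes, with 2 for Txnrd1 and 1 for every other gene. The dams were female C57BL/6J mice, for which the labels name no genetic alteration. In both groups the diet was given during gestation. The CD supplied 4.3% of its energy as fat, 19.2% as protein and 67.3% as carbohydrate, and the HFD supplied 60% as fat, 20% as protein and 20% as carbohydrate. Each group had 2 biological replicates, each hybridised as Cy3-labeled cRNA to 1 single-colour array. The labels give the sex as female without saying whether this was the dam or the fetus, and the sources used here do not give the number of fetuses or dams behind an array.

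Cells remove superoxide with the superoxide dismutases SOD1, in the cytosol, and SOD2, in mitochondria, which turn it into hydrogen peroxide. Catalase, glutathione peroxidases and peroxiredoxins then remove the peroxide, and glutathione and thioredoxin, which supply the electrons for the latter enzymes, are restored by reductases that use NADPH. Many genes of this system are induced by the transcription factor NRF2 (Nfe2l2), which the adaptor KEAP1 marks for degradation until oxidants or electrophiles modify KEAP1, and which pairs with small MAF proteins on antioxidant response elements of its targets. In mid-gestation the fetal liver is the main site of red cell production, so a bulk signal of these genes can come from maturing erythroid cells as well as from hepatoblasts.

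The antioxidant response element was searched for in the members' promoters, since Nqo1, Hmox1, Gclc, Gclm, Txnrd1 and Srxn1 are textbook NRF2 targets. RefSeq promoter windows of build GRCm38.p6 were used, and only the 250 bases before the annotated start were read. 8 of the 10 members matched, in 10 windows, of which Txnrd1 had 3, and Hmox1 and Gclc were not analysed here. The motif TGACNNNGC, read on both strands, was in 3 of the 10 windows, those of Gclm, Txnrd1 and Sod1, and in 10.2% of all 32851 windows. All 3 matches lay on the strand opposite to the gene, so that they read GCNNNGTCA in the gene's direction. The related motif TGANTCAGC, which overlaps the first where its N is C, was chosen after the windows had been read. It was in 1 of the 10 windows, that of Srxn1, and in 1.02% of all windows. The stretches below are shown because they hold these letters, with the match in capitals and all written 5′ to 3′ on the plus strand, which is the strand of all 4 genes. For Srxn1 the whole 250-base window is given, since this gene had the smallest p-value of the members, and for the others 59 bases around the match are given.

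Srxn1 (chr2:152105274-152105523): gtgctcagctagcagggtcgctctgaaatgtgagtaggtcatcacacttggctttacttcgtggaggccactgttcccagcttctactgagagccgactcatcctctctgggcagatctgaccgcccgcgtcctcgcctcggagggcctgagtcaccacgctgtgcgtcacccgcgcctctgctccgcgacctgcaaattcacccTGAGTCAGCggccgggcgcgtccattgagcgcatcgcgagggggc
Gclm (chr3:122245398-122245456): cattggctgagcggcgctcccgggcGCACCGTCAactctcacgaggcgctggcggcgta
Txnrd1 (chr10:82859089-82859147): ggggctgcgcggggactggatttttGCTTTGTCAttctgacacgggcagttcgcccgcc
Sod1 (chr16:90220681-90220739): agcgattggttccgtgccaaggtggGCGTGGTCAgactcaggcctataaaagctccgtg

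The Srxn1 match lay 45 to 37 bases before the start, the Sod1 match 56 to 48, the Txnrd1 match 92 to 84 and the Gclm match 134 to 126. No binding was measured, so a match is a description of the sequence only.

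The signal of all 11 member probes was well above background on each of the 4 arrays, and all passed the filters on dim and variable probes. Levels are given as log2 of the array's processed intensity, with the 75th percentile of that array set to 0, and a difference is the HFD mean minus the CD mean on this scale. The arrays were on 1 slide and were read in 1 scan. Between 65.4% and 70.0% of the spots on an array were well above background and none was saturated. The genes Alb and Afp of hepatoblasts, and Hba-a1 and Hbb-bt of erythroid cells, were bright on every array, so the labelled tissue had its defining markers, and all 10 hepatoblast and all 10 erythroid marker genes measured exceeded background on every array. In this bulk tissue, fewer cells of a type and less RNA per cell cannot be told apart.

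None of the 10 members passed an unadjusted limma p of 0.05 between fetal livers from HFD-fed and CD-fed dams, beside 2.85% of all 18205 genes tested, and so none passed this p together with a 2-fold change, beside 0.769% of all genes. After Benjamini-Hochberg adjustment over all 41332 probes no probe of any gene was called, and the adjusted p was 1.00 for every member. The fold changes of the members ran from 0.997 for Gclc to 1.37 for Cat, and the 95% intervals of all 10 lay inside a 2-fold change in both directions, as did those of 78.3% of all genes. Cat, Srxn1 and Hmox1 had the largest differences, with higher HFD means. Both HFD arrays lay above both CD arrays for 5 members, Nqo1, Hmox1, Srxn1, Sod2 and Cat, and below them for none, beside 23.0% and 10.1% of all genes. With 2 arrays in each group an exact permutation test cannot go below p = 0.333.

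**Figure D1:**
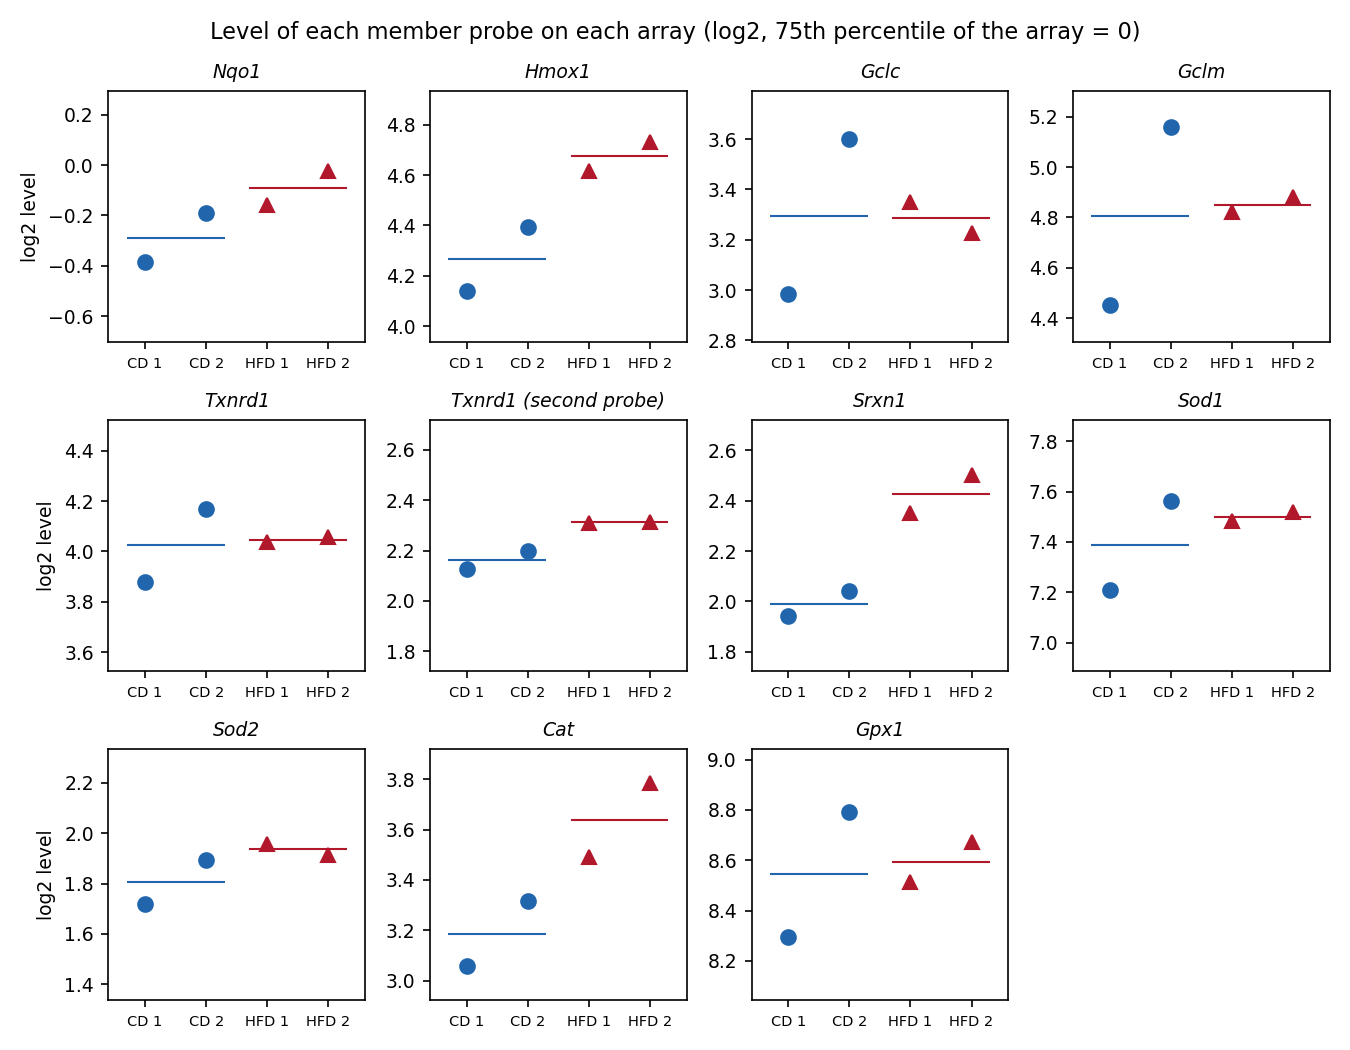
Level of each of the 11 member probes on each array, as log2 intensity with the array's 75th percentile at 0; circles are CD arrays, triangles HFD arrays and lines the group means, and every panel spans 1 log2 unit. CD replicate 1 is the lowest array in all 11 panels, and the groups are apart for Nqo1, Hmox1, Srxn1, Sod2, Cat and the second Txnrd1 probe.

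The genes of glutathione synthesis overlapped between the diets. GCLC is the catalytic and GCLM the modifier subunit of glutamate-cysteine ligase, the rate-limiting enzyme of glutathione synthesis. The Gclc level was 2.98 and 3.6 in CD and 3.35 and 3.23 in HFD, so that both HFD values lay between the CD values. The difference in Gclc was -0.005 on the log2 scale (SE 0.26, 95% interval -0.70 to 0.69), with an unadjusted limma p of 0.986. The Gclm level was 4.45 and 5.16 in CD and 4.82 and 4.88 in HFD, again with the HFD values between the CD values. The difference in Gclm was 0.05 (SE 0.28, 95% interval -0.71 to 0.80), with an unadjusted limma p of 0.877. In both genes the CD replicates differed from each other by 0.62 and 0.71, far more than the group means did. Without CD replicate 2 the Gclm difference was 0.40, and without CD replicate 1 it was -0.31, so its direction rested on which CD array was used.

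Nqo1 and Hmox1 act on quinones and heme. NQO1 reduces quinones by an electron pair at a time and is the classic reporter of NRF2 activity. Its level was -0.38 and -0.19 in CD and -0.16 and -0.02 in HFD. The groups of Nqo1 did not overlap, but the gap between CD replicate 2 and HFD replicate 1 was narrow. The Nqo1 difference was 0.20 (SE 0.18, 95% interval -0.27 to 0.67), with an unadjusted limma p of 0.317. Hmox1 encodes the inducible heme oxygenase, which opens the heme ring to biliverdin, carbon monoxide and iron. Its level was 4.14 and 4.39 in CD and 4.62 and 4.73 in HFD, with both HFD arrays above both CD arrays. The Hmox1 difference was 0.41 (SE 0.18, 95% interval -0.08 to 0.89), a 1.33-fold higher HFD mean, with an unadjusted limma p of 0.082. With normexp background correction the unadjusted limma p of Hmox1 was 0.037, but it was 0.107 with quantile normalization and 0.177 with the replicate block. The methods' t-test gave Hmox1 an unadjusted p of 0.101. Without 1 array the Hmox1 difference ran from 0.28 to 0.54.

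Srxn1 and Txnrd1 serve the thiol side of the system. Sulfiredoxin, the product of Srxn1, repairs peroxiredoxins that peroxide has over-oxidised. The Srxn1 level was 1.94 and 2.04 in CD and 2.35 and 2.50 in HFD, and the step between the groups was wider than the distance between replicates of either group. The group means were 1.99 ± 0.07 in CD and 2.43 ± 0.11 in HFD (SD, n = 2 each). The difference was 0.44 (SE 0.17, 95% interval -0.009 to 0.89), a 1.35-fold higher HFD mean, with an unadjusted limma p of 0.053. Srxn1 fell on either side of the threshold, depending on the setting. Its unadjusted limma p was 0.044 when the filter kept probes well above background and 0.030 with normexp. It was 0.056 with quantile normalization, 0.084 with no filter on dim probes and 0.149 with the replicate block. Without 1 array the Srxn1 difference ran from 0.36 to 0.51. Txnrd1 encodes the cytosolic thioredoxin reductase, and its 2 probes differed in pattern. The brighter Txnrd1 probe gave 3.88 and 4.17 in CD and 4.04 and 4.06 in HFD, with the HFD values inside the CD range and a difference of 0.02 (SE 0.18, unadjusted limma p of 0.911). The second Txnrd1 probe gave 2.13 and 2.20 in CD and 2.31 and 2.32 in HFD, which did not overlap, and a difference of 0.15 (SE 0.16, unadjusted limma p of 0.391). Both probes match the same RefSeq transcript, and neither passed the test.

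Neither superoxide dismutase passed the test. The Sod1 level was 7.21 and 7.56 in CD and 7.48 and 7.52 in HFD, and the HFD values lay inside the CD range. The Sod1 difference was 0.11 (SE 0.20, 95% interval -0.41 to 0.64), with an unadjusted limma p of 0.591. The Sod2 level was 1.72 and 1.89 in CD and 1.96 and 1.92 in HFD. The Sod2 groups did not overlap, yet CD replicate 2 lay next to the HFD values. The Sod2 difference was 0.13 (SE 0.17, 95% interval -0.32 to 0.58), with an unadjusted limma p of 0.477.

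Cat and Gpx1 encode enzymes that remove peroxide. Catalase splits hydrogen peroxide without a cofactor to be restored and is abundant in liver peroxisomes and in red cells. The Cat level was 3.06 and 3.31 in CD and 3.49 and 3.78 in HFD, and every HFD value was above both CD values. The Cat means were 3.19 ± 0.18 in CD and 3.64 ± 0.21 in HFD (SD, n = 2 each). The difference was 0.45 (SE 0.20, 95% interval -0.09 to 0.99), a 1.37-fold higher HFD mean, with an unadjusted limma p of 0.083. That limma p was 0.046 with normexp, but 0.109 with quantile normalization and 0.138 with the replicate block. GPX1, the main cytosolic glutathione peroxidase, reduces hydrogen peroxide with glutathione. The Gpx1 level was 8.30 and 8.79 in CD and 8.52 and 8.67 in HFD, with the HFD values inside the CD range. The Gpx1 difference was 0.05 (SE 0.23, 95% interval -0.57 to 0.67), with an unadjusted limma p of 0.844, and it was -0.20 without CD replicate 1.

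**Figure D2:**
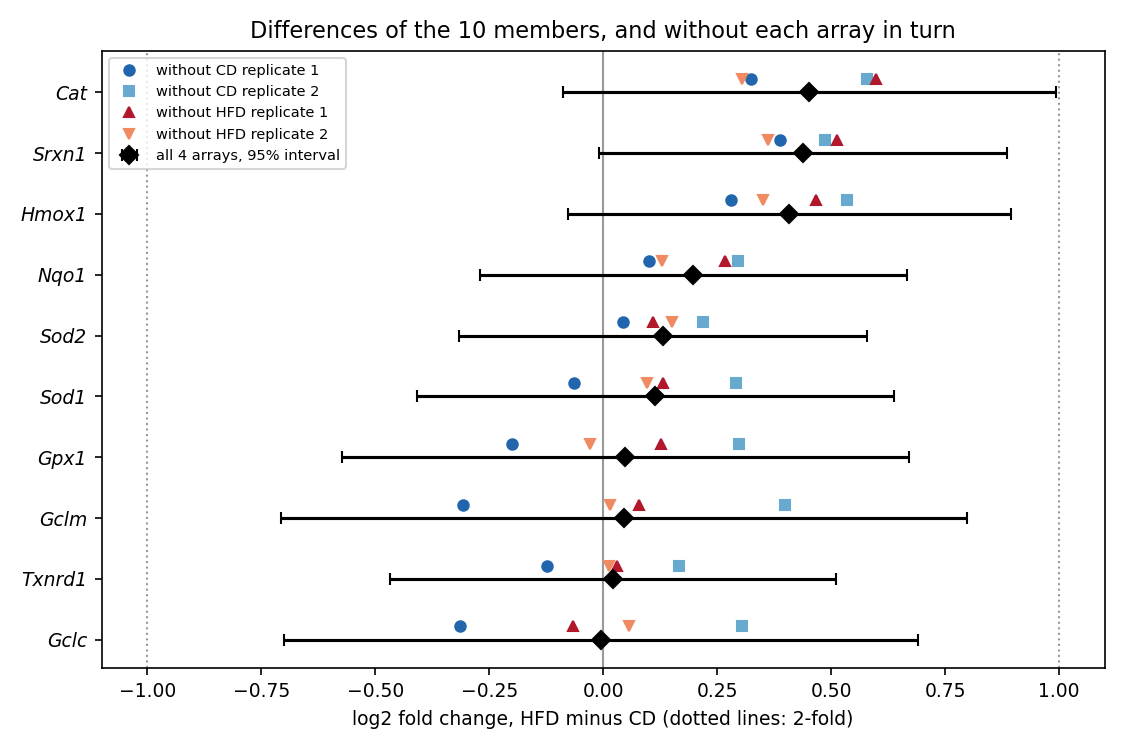
Log2 fold change (HFD minus CD) of the 10 members; diamonds with bars are limma estimates from all 4 arrays with 95% intervals, and coloured points are estimates without 1 array. All 10 intervals cover 0 and end inside the dotted 2-fold lines. Cat, Srxn1, Hmox1, Nqo1 and Sod2 stay above 0 without any 1 array, as genes whose groups do not overlap must, and the other 5 take both signs.

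The members differed in how they spread over the arrays. CD replicate 1 was the lowest array for all 10 members, beside 42.7% of all genes, and CD replicate 2 was the highest for 5, Gclc, Gclm, Txnrd1, Sod1 and Gpx1. The median absolute difference between replicates was 0.27 for CD and 0.12 for HFD over the members, and 0.32 and 0.10 over all genes. For 6 of the 10 members, Gclc, Gclm, Txnrd1, Sod1, Sod2 and Gpx1, the CD replicates differed from each other by more than the group means did, beside 71.7% of all genes. For the other 4, Nqo1, Hmox1, Srxn1 and Cat, the group means differed more, and the range ran from CD replicate 1 to HFD replicate 2. Hepatoblast, erythroid, macrophage and granulocyte markers were also lowest on CD replicate 1 and highest on CD replicate 2 by their list medians. On CD replicate 1, the hepatoblast and erythroid medians were 0.27 and 0.26 below each gene's mean over the 4 arrays, and that of the members was 0.27 below it. The macrophage and granulocyte medians were 0.21 and 0.26 below it. On CD replicate 2 the medians lay above the mean, by 0.25 for hepatoblast, 0.15 for erythroid, 0.24 for macrophage and 0.33 for granulocyte genes, and by 0.07 for the members, whose median was highest on HFD replicate 2, at 0.09. The part of cell makeup in the members' levels was not tested.

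**Figure D3:**
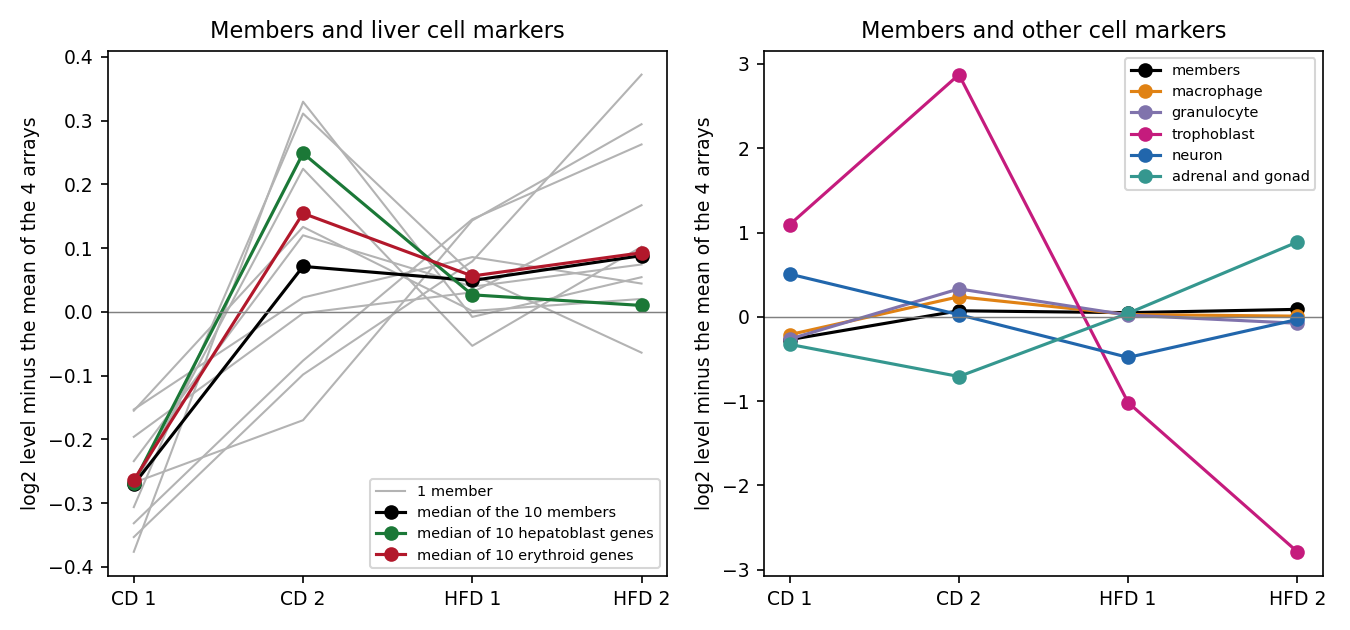
Log2 level on each array minus the gene's mean over the 4 arrays, with lines drawn only to join the same genes; the left panel shows each member and the medians of members, hepatoblast and erythroid markers, the right panel the medians of members and of other cell markers on a wider scale. The members' median and those of hepatoblast, erythroid, macrophage and granulocyte genes are lowest on CD replicate 1, while trophoblast markers spread from 2.87 above to 2.79 below their mean.

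Marker lists of other cell types are given beside the members, whose groups were apart for Nqo1, Hmox1, Srxn1, Sod2 and Cat without passing the test. Over all 18205 genes tested, 23.0% were higher and 10.1% lower on both HFD arrays. Marker genes were counted whether or not the filters kept them, so these shares do not cover all of them. Of the 10 erythroid genes, 4 were higher on both, namely Rhag, Alas2, Slc4a1 and Ermap, as were 2 of 10 hepatoblast, 2 of 10 macrophage and 1 of 8 granulocyte genes, and none of these lists had a gene that was lower on both. Rhag, a red cell membrane protein, had the largest difference of the erythroid list and is named after its values were seen. It had 2.36 and 2.26 in CD and 2.77 and 2.70 in HFD, a difference of 0.43 (unadjusted limma p of 0.052). Hba-a1 and Hbb-bt, the brightest of that list, had lower HFD means, with differences of -0.09 each. Epor and Klf1 also had lower HFD means, with differences of -0.08 and -0.03. The summed scaled signal of the erythroid list was 1375 and 1979 in CD and 1573 and 1706 in HFD, so the groups overlapped. For the 10 hepatoblast genes it was 1450 and 2215 in CD and 1726 and 1755 in HFD, also with overlap. Both HFD arrays lay below both CD arrays for 9 of 12 trophoblast genes, which the filters left out of the test, and the median difference of the 12 was -3.94. Their summed signal was 66.8 and 75.5 in CD and 47.6 and 50.4 in HFD, most of it from Gcm1 in 3 of the 4 arrays, and without Gcm1 the other 11 summed to 16.6 and 56.1 in CD and 4.31 and 1.95 in HFD. Within that list, Tpbpa gave 3.01 and 4.80 in CD and 1.00 and -1.01 in HFD, and Ctsq was not well above background on either HFD array. Gcm1, with Tpbpa the brightest of the list, gave 5.65 and 4.28 in CD and 5.43 and 5.60 in HFD, with overlap. Neuron genes summed to 28.6 and 20.4 in CD and 15.5 and 21.0 in HFD, with 4 of 8 lower on both HFD arrays and Stmn2 and Gap43 the brightest. Adrenal and gonad genes summed to 13.0 and 10.3 in CD and 15.4 and 24.2 in HFD, with 3 of 8 higher on both HFD arrays and Cyp17a1 and Hsd3b1 the brightest. Macrophage genes, led by Marco and Cd5l, summed to 63.8 and 84.1 in CD and 82.0 and 79.9 in HFD, and granulocyte genes, led by S100a9 and Mpo, to 159 and 248 in CD and 209 and 188 in HFD. Vsig4 of the macrophage list was not well above background on any array. The part of these markers in the members' differences was not tested.

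Around the members, 86 of 89 further genes of oxidant defence had a named probe and 84 were tested. One of them, Nox4, passed the unadjusted limma p of 0.05, with a lower HFD mean, beside 1.46% of all genes lower and 1.38% higher at this p. Both HFD arrays lay above both CD arrays for 15 of the 84 (17.9%) and below them for 4 (4.76%), beside 23.0% and 10.1% of all genes. The median difference was 0.12 for the members, 0.06 for these 84 genes and 0.04 for all 18205 genes. Leaving out CD replicate 1 gave a members' median of -0.01, and leaving out CD replicate 2 gave 0.30.

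The control of NRF2 itself showed no difference that passed the test in any of 10 genes. Nfe2l2 had 2.67 and 3.05 in CD and 3.07 and 2.94 in HFD, and its repressor Keap1 had 2.65 and 2.90 against 2.67 and 2.60. The Nfe2l2 difference was 0.14 (SE 0.21) and the Keap1 difference -0.14 (SE 0.18). Bach1, which competes with NRF2 at the same elements and is released by heme, differed by 0.10 (SE 0.17). Mafg, a small MAF partner, was the 1 gene of the 10 whose groups did not overlap, at 4.48 and 4.55 in CD and 4.72 and 4.73 in HFD, with a difference of 0.21 (unadjusted limma p of 0.248).

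None of 19 glutathione genes tested passed, and their median difference was 0.08. Gsr, the reductase that restores glutathione, had 3.86 and 3.94 in CD and 4.15 and 4.11 in HFD, which did not overlap, with a difference of 0.23 (unadjusted limma p of 0.215). Gss, which completes glutathione synthesis, differed by 0.19 and Gpx4, which reduces lipid peroxides, by 0.14, both with overlapping groups. Slc7a11, the cystine importer, was well above background on 1 CD and both HFD arrays and differed by 0.24 (SE 0.34).

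None of 15 thioredoxin and peroxiredoxin genes passed. Txnrd2, the mitochondrial thioredoxin reductase, came closest, at 4.81 and 4.98 in CD and 5.30 and 5.25 in HFD. The groups of Txnrd2 were apart, and the difference was 0.38 (SE 0.17, 95% interval -0.07 to 0.83, unadjusted limma p of 0.079). The dimmer Txnrd2 probe gave -0.03 and 0.73 in CD and 0.34 and 0.28 in HFD, which overlapped, with a difference of -0.04 (unadjusted limma p of 0.904). Txn1, the cytosolic thioredoxin, had 5.29 and 5.26 in CD and 5.48 and 5.53 in HFD, a difference of 0.23 (unadjusted limma p of 0.212). The peroxiredoxins Prdx1 and Prdx2, the latter abundant in red cells, differed by 0.06 and 0.18 with overlapping groups. Other probes of Prdx1 differed by 0.08 and -0.11, and a second probe of Prdx2 by 0.14, also with overlapping groups.

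Of 8 enzymes of NADPH supply none passed. Me1, the cytosolic malic enzyme, had 0.98 and 0.37 in CD and 1.14 and 1.29 in HFD, a difference of 0.54 (SE 0.26, 95% interval -0.16 to 1.24, unadjusted limma p of 0.103). The dimmer Me1 probe, also with groups apart, had a smaller difference of 0.17 (unadjusted limma p of 0.358). The pentose phosphate enzymes G6pdx and Pgd differed by 0.02 and -0.18, both with overlapping groups. Among 6 genes of heme breakdown and iron storage no groups were apart. Hmox2, the constitutive heme oxygenase, differed by -0.09, the biliverdin reductases Blvra and Blvrb by 0.06 and 0.19, the heme transporter Slc48a1 by 0.20, and the ferritin chains Fth1 and Ftl1 by 0.02 each. Second probes differed by -0.10 for Hmox2, 0.10 for Blvra, -0.02 for Slc48a1 and 0.15 for Ftl1, also with overlapping groups. Hmox1, the inducible heme oxygenase, had a difference of 0.41.

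Of 9 other NRF2 targets none passed. Abcc1, an exporter of glutathione conjugates, had -1.45 and -1.32 in CD and -1.73 and -1.76 in HFD, lower on both HFD arrays, with a difference of -0.36 (unadjusted limma p of 0.085). Osgin1, an oxidative stress response gene, had 1.52 and 2.26 in CD and 1.56 and 1.39 in HFD, which overlapped, with a difference of -0.41 (unadjusted limma p of 0.228). Among 6 genes of superoxide and metal buffering no groups were apart. The metallothioneins Mt1 and Mt2 differed by -0.07 and -0.008. The extracellular dismutase Sod3 differed by 0.10 and Ccs, the copper chaperone of SOD1, by 0.14. Second probes of Mt1 and Ccs differed by 0.04 and -0.002.

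The oxidant sources gave the 1 gene that passed. Nox4, an NADPH oxidase that yields hydrogen peroxide, was dim, at -5.20 and -5.29 in CD and -6.21 and -5.75 in HFD, and was not well above background on either HFD array. Its level was at least 1.45-fold lower in fetal livers from HFD-fed dams when the HFD level is taken as a bound, with an unadjusted limma p of 0.025 and an adjusted p of 1.00. The unadjusted limma p of Nox4 was 0.084 without CD replicate 1, 0.064 without CD replicate 2, 0.255 without HFD replicate 1 and 0.282 with normexp, so the call was lost in each case. It was also lost with the methods' t-test and with the mean of its 2 probes. The other Nox4 probe gave -5.08 and -6.18 in CD and -6.01 and -6.08 in HFD, which overlapped, with a difference of -0.42 (unadjusted limma p of 0.348), and was well above background on 1 array. Cyba, a membrane subunit shared by several oxidases, had 4.80 and 4.42 in CD and 4.99 and 4.93 in HFD, a difference of 0.35 (unadjusted limma p of 0.150). Cybb, the catalytic subunit in phagocytes, differed by 0.13 (unadjusted limma p of 0.465). Second probes of Cyba and Cybb differed by 0.55 and -0.02, and that of Gss above by -0.10, none past the test. Nox1 and Nox3 were left out by the filter on dim probes.

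**Figure D4:**
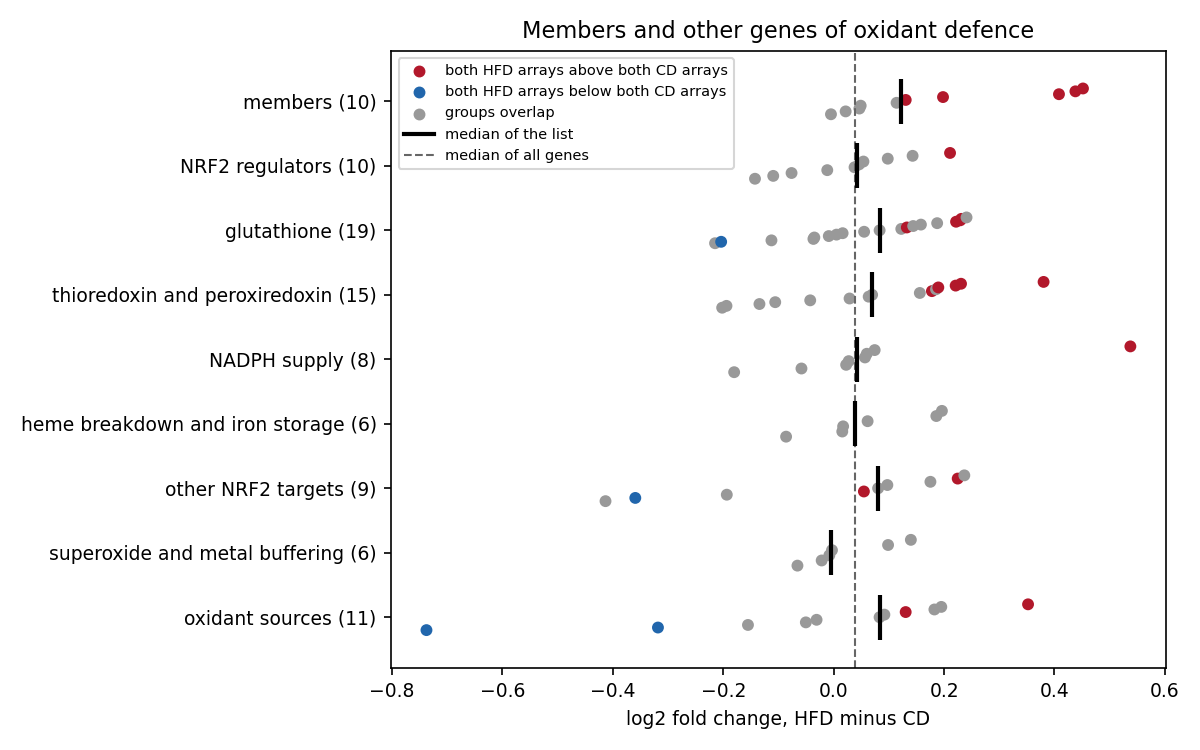
Log2 fold change (HFD minus CD) of the members and of 8 lists of related genes, with the number tested in brackets; each point is 1 gene, coloured by whether the 2 groups overlap, bars are list medians and the dashed line is the median of all genes, 0.04. The list medians lie between -0.005 and 0.08, that of the members is 0.12, and Nox4 and Me1, each by its brightest probe, lie farthest out.

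Cat and Gclm had the widest range over the arrays, 0.73 and 0.71. Among 16521 other genes well above background on all arrays, the 3 whose centred levels lay closest to those of Cat were Ccdc148, Hspb9 and Olfr1162, with root mean square differences of 0.016, 0.016 and 0.028 over the 4 arrays. For Gclm they were Trpm2, Dkkl1 and Trim10, at 0.0079, 0.0092 and 0.0094. Of the 16521 genes, 120 lay within 0.05 of Gclm and 15 within 0.05 of Cat. The profile of Gclm had CD replicate 1 lowest and CD replicate 2 highest. Ccdc148 and Olfr1162 were dim, at -4.32 and -4.43 on HFD replicate 2, their highest array.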

How the data were processed

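Per the labels and the study's methods, total RNA of fetal livers was labeled with Cy3 and hybridised to Agilent SurePrint G3 mouse arrays, and Agilent Feature Extraction 11.0.1.1 read the image. For each spot the authors deposited a processed intensity, background-subtracted and spatially detrended, the median intensity of the spot and its local background, and flags, used here as scores of 0 or 1. The deposited table of normalized signal for 41471 probes was, on each array, the intensity divided by 1 constant, within 0.1%.

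The log2 intensity was averaged over the spots of a probe without outlier flags, and the 75th percentile of each array was subtracted. Of 56605 probes, those under the 20th percentile on any array, with all spots flagged or with a CV over 50% in both groups were left out. These filters follow the methods, except that the CV was computed from linear values, where the methods name log values. The remaining 41332 probes were tested in R 4.3.3 with lmFit and eBayes of limma 3.58.1, taking HFD minus CD over the 4 arrays without covariates. Thresholds were an unadjusted p of 0.05 and 2-fold, with Benjamini-Hochberg adjustment over all probes. The code was tested on simulated data. A gene was represented by its brightest tested probe, and a probe was named by matching its transcript to RefSeq genes of GRCm38.p6. The array design is on another build, so no probe coordinates are given, and the promoter coordinates above are those of GRCm38.p6. A probe not well above background on either array of a group was given a bound from the dimmest probe well above background on each array. Tables and plots were made with Python 3.11.15.

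The members and lists were chosen with earlier results of these data known. Named genes were all members, a set of central genes fixed by name, and from each list those with p under 0.05 and the 2 with the largest difference among probes well above background, and of each marker list the 2 brightest. Other genes were named after their values were seen. Alternatives were quantile normalization, normexp with an offset of 50 on median intensities, the deposited table, other filters, the methods' t-test, a replicate block, the mean of a gene's probes and leaving out each array. The number of arrays limits the precision.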

Additional observations from a re-analysis of the deposited data

How the results depend on the processing

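The number of member genes with an unadjusted p under 0.05 was 0 with the main setting and with quantile normalization, the deposited table, no filter on dim probes, no CV filter and the replicate block. It was 3 with normexp background correction (Hmox1, Srxn1 and Cat), and 1, Srxn1, with the filter for probes well above background, with the methods' t-test and with the mean of a gene's probes. Without 1 array, the count at this p moved in 1 of 4 fits for members. For pathway genes and for all probes it moved in 3 of 4. The member counts of these fits are not given, since each left a group with 1 sample. Those of pathway genes and of all probes are given below and carry little weight for the same reason. Both rose without CD replicate 1 and without CD replicate 2, so these counts do not set the pathway genes apart from other genes. No member reached this p with a 2-fold change under any alternative run. Pathway genes with p under 0.05 were 1 (Nox4) with the main setting, 2 with normexp (Txnrd2 and Me1), 4 with the methods' t-test (Mafg, Gsr, Txn1 and Abcc1) and 1 with the mean of a gene's probes (Xdh). They were 0 to 15 when an array was left out, with 13 without CD replicate 1, 15 without CD replicate 2 and 0 without HFD replicate 1. Over all probes, 1383 had p under 0.05 and 318 also a 2-fold change; these were 611 and 48 with normexp, 2089 and 97 with the methods' t-test, and 776 to 8609 and 654 to 1226 when an array was left out, and 845 passed both cutoffs without the filter on dim probes. The count of both cutoffs was 721 without CD replicate 2, 871 without HFD replicate 1 and 654 without HFD replicate 2. After adjustment 1 probe was called with normexp, and 0 to 6 when an array was left out.

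Some members near 0 changed sign. Gclc was 0.0018 with normexp and 0.06 without HFD replicate 2, and Gclm was -0.042 and Txnrd1 -0.055 with quantile normalization. Gpx1 was -0.029 without HFD replicate 2. Leaving out CD replicate 1 gave the lowest and CD replicate 2 the highest value of these genes, -0.31 to 0.30 for Gclc, -0.31 to 0.40 for Gclm, -0.12 to 0.17 for Txnrd1, -0.063 to 0.29 for Sod1 and -0.20 to 0.30 for Gpx1. Nqo1, Hmox1, Srxn1, Sod2 and Cat kept their direction under every alternative run. When an array was left out this had to be so, since both HFD arrays lay above both CD arrays. The other filters, the methods' t-test and the replicate block left the difference itself unchanged. The medians of the 8 lists ran from -0.21 to 0.01 without CD replicate 1 and from 0.02 to 0.30 without CD replicate 2. The cause of these changes was not tested. The motif TGANTCAGC, added after seeing the data, was in 1 member window against 3 for TGACNNNGC.

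The groups share replicate numbers 1 and 2, but the deviations of same-numbered arrays from their group means did not go together (correlation -0.0997 over probes), and nothing in the labels ties them. With the replicate number as a block, 0 members and 1 pathway gene had p under 0.05, and 1511 probes did, of which 435 also changed 2-fold. The slide could not be used as a block, since all arrays shared it. A fit without 1 array left that group with 1 sample, which is assumed to vary like the other group.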

Other observations

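Xdh, the xanthine oxidoreductase that can release superoxide, has 2 tested probes that disagree, and it is named here after its values were seen. The brighter probe gave -3.85 and -3.21 in CD and -3.57 and -3.32 in HFD, a difference of 0.08 with an unadjusted limma p of 0.779. The dimmer probe gave -6.24 and -7.43 in CD and -5.79 and -5.56 in HFD, a difference of 1.16 with an unadjusted limma p of 0.048. It was well above background on only 2 of the 4 arrays. Its intensity was 14.2 and 4.08 in CD and 17.5 and 19.3 in HFD, near the floor, and no bound is given for this difference.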
